A study of Homo sapiens with 6 samples.

Results

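Complex III, complex IV and ATP synthase are the last machines of mitochondrial oxidative phosphorylation, and their nuclear subunit genes were followed here in HCT8 cells, an established human colorectal cancer line. The genes were taken by name: every nuclear protein-coding gene whose symbol starts with UQCR, COX4I, COX5, COX6, COX7, COX8 or ATP5, together with CYC1 and CYCS, and no pseudogene. The rule found 48 genes among the 60664 of the count table, of which 10 belong to complex III, 17 to complex IV and 20 to ATP synthase, with CYCS as the carrier between the first pair. 40 of the 48 were expressed highly enough to be tested. The study compared 3 libraries of cells that received a control plasmid, labelled as wild type, with 3 libraries of cells that received a GPT1 overexpression plasmid. GPT1, gene symbol GPT, is a cytosolic alanine aminotransferase, and the stated aim was to find the signalling that it regulates. All 6 libraries came from the same line, grown in DMEM with fetal bovine serum. The labels give no time after transfection, no selection and no clone. No source says that the replicates were separate cultures, so the p-values speak only for the spread among these 6 libraries, and that spread may be technical.

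Complex III, the cytochrome bc1 complex, passes electrons from ubiquinol to cytochrome c and pumps protons across the inner mitochondrial membrane. Complex IV, cytochrome c oxidase, hands those electrons to oxygen, and ATP synthase lets the protons flow back through a rotating ring of c subunits to drive ATP formation. The catalytic centre of complex IV, cytochrome b of complex III and the proton channel subunits of ATP synthase are encoded by the mitochondrial genome, while all the subunits described here are made in the cytosol and imported. Several complex IV subunits exist as a general form and a form of muscle, lung or testis.

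Library totals ranged from 21255655 counts in control replicate 3 to 32487217 in control replicate 1, and all levels are given as CPM, the counts of a gene relative to the scaled size of its library. GPT itself had 9, 14 and 3 counts in the control libraries and 105529, 96886 and 106063 in the GPT1 libraries, as the labels of all 6 libraries state. Transcripts of the mitochondrial genome took 1.761%, 2.485% and 2.372% of the counts in the control libraries and 1.762%, 2.31% and 1.084% in the GPT1 libraries. Of 10 intestinal epithelial marker genes, KRT20 and CDX1 were at or near 0 in both groups, and the other 8 were measured. Markers of other lineages are given at the end of the results.

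20 of the 40 tested genes were higher in the GPT1 libraries at an adjusted p under 0.05, and 0 were lower. Over all 17638 genes tested, 10.5% were called higher and 14.6% lower. The levels of the control and GPT1 groups did not overlap for 29 of the 40, always with GPT1 higher, while 21.2% of all tested genes had groups that were separate in that direction. At an unadjusted p under 0.05, 27 of the 40 passed and 0 of these were lower, where 7069 of all 17638 genes passed in either direction. DESeq2 and limma voom also called 0 lower, and they called 19 and 20 higher, where each called 10.7% of all genes higher. The changes were small. In bulk RNA, a change in the share of cells that express a gene and a change in RNA per cell cannot be told apart. The median difference between GPT1 and control was 0.29 on the log2 scale (-0.02 over all genes), and single genes ran from -0.04 to 0.91. Summed over the 48 genes, the level was 6991 ± 370 CPM (SD, n = 3) in the control libraries and 8360 ± 437 CPM (SD, n = 3) in the GPT1 libraries.

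**Figure D1:**
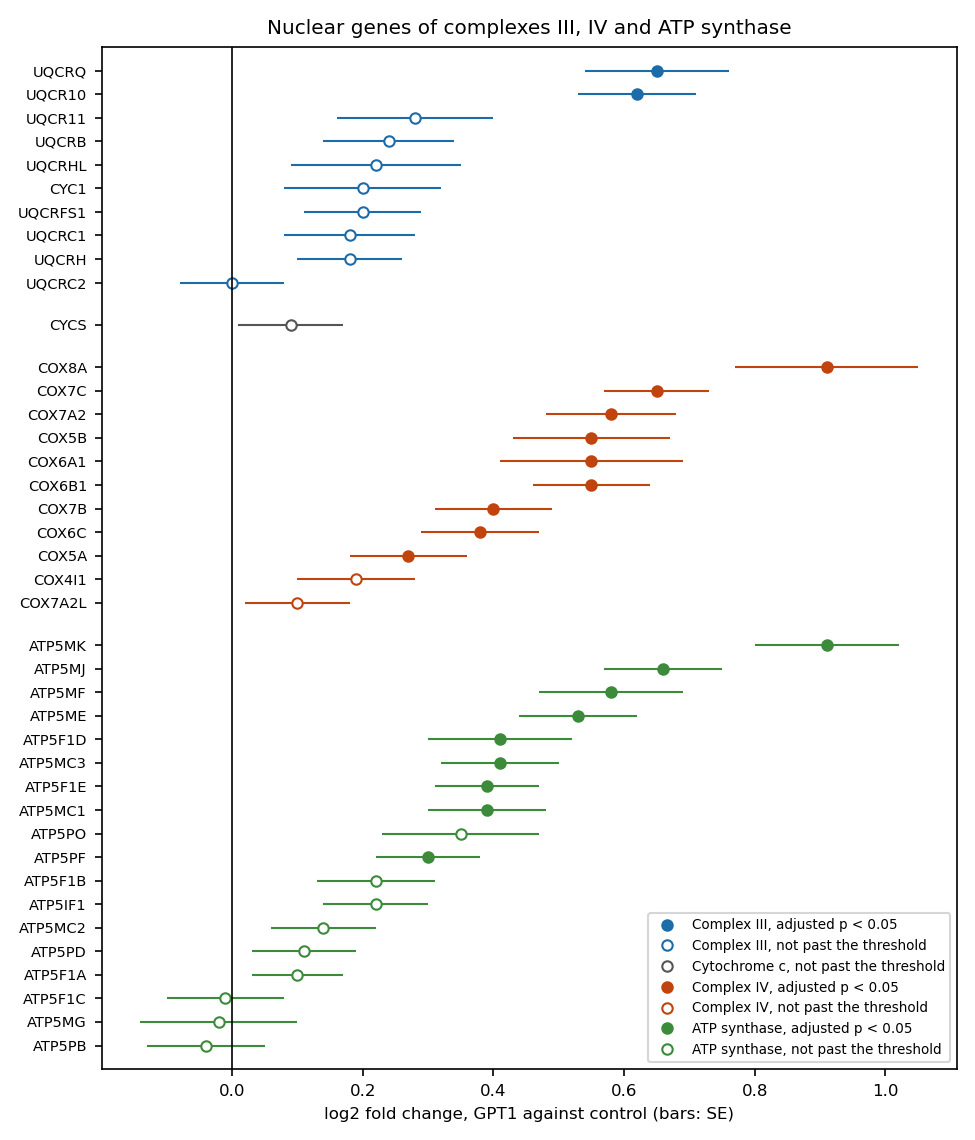
Log2 fold change of GPT1 against control for the 40 tested genes, grouped by complex, with the standard error as a bar. Filled points passed an adjusted p of 0.05, and they include 9 complex IV genes, 9 ATP synthase genes and only UQCRQ and UQCR10 of complex III.

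The number of calls rested on particular libraries. Without control replicate 1 it fell from 20 to 14 (background 5.48%), without GPT1 replicate 1 to 13 (3.58%) and without GPT1 replicate 3 to 12 (3.39%), while leaving out control replicate 3 gave 22 (9.95%) and leaving out either replicate 2 gave 20 or 21. Against a change of at least 1.2-fold 10 were called (2.99%), and at an adjusted p of 0.01 there were 11 (2.78%). 11 genes were called whichever library was left out. They were UQCRQ and UQCR10 of complex III, COX6B1, COX7A2, COX7C and COX8A of complex IV, and ATP5F1E, ATP5ME, ATP5MF, ATP5MJ and ATP5MK of ATP synthase.

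For each complex and its parts, the counts stand beside 10.5% of all genes called higher and 14.6% lower. Complex III showed the fewest calls, with 2 of 10 genes higher and 0 lower. Both were small subunits without a redox centre. UQCRQ (chr5:132866560-132868031, GRCh38) measured 131, 147 and 115 CPM in the control libraries and 222, 181 and 214 CPM in the GPT1 libraries. All 3 GPT1 libraries lay above all controls, and the gene rose by 0.65 ± 0.11 (log2 fold change ± SE) with an adjusted p of 0.00355. UQCR10 (chr22:29767369-29770413) measured 91.7, 101 and 87.8 CPM against 152, 133 and 147 CPM. It rose by 0.62 ± 0.09 (adjusted p = 0.00144), again with separate groups.

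The 4 core genes of complex III gave 0 calls, where 10.5% of all genes were called higher. UQCRC1 and UQCRC2 encode the large core proteins that face the matrix, and UQCRFS1 encodes the Rieske iron-sulfur protein. UQCRC2 was the flattest gene of the complex, at 191, 182 and 206 CPM in the control libraries and 184, 191 and 204 CPM in the GPT1 libraries, a ratio of 0.999. CYC1, the heme-bearing cytochrome c1, measured 294, 330 and 236 CPM against 362, 297 and 330 CPM, and its groups overlapped. Its difference of 0.20 ± 0.12 did not pass (adjusted p = 0.238). UQCRC1 (0.18 ± 0.10, adjusted p = 0.204) and UQCRFS1 (0.20 ± 0.09, adjusted p = 0.125) were of the same size.

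The other small subunits did not pass. UQCR11 differed by 0.28 ± 0.12 (adjusted p = 0.105), UQCRB by 0.24 ± 0.10 (adjusted p = 0.0962) and UQCRH, the acidic hinge protein next to cytochrome c1, by 0.18 ± 0.08 (adjusted p = 0.0969). UQCRHL, an intronless near copy of UQCRH, differed by 0.22 ± 0.13 (adjusted p = 0.21). Without control replicate 3, UQCRB and UQCRHL passed and the complex had 4 calls. The split between UQCRQ and UQCR10 and the core genes was not tested as a difference.

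CYCS, the mobile cytochrome c that links complex III to complex IV, measured 195, 213 and 224 CPM in the control libraries and 215, 231 and 227 CPM in the GPT1 libraries. The groups overlapped, and the difference of 0.09 ± 0.08 did not pass (adjusted p = 0.45).

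Complex IV had the highest share of calls: 9 of its 11 tested genes rose and 0 fell, with a median difference of 0.55. Its summed level was 1441 ± 82.7 CPM (SD, n = 3) in the control libraries and 1860 ± 119 CPM (SD, n = 3) in the GPT1 libraries. COX8A (chr11:63974607-63976543), the smallest transmembrane subunit, measured 12.3, 9.62 and 8.88 CPM against 20.5, 17.8 and 19.5 CPM. It rose by 0.91 ± 0.14 (adjusted p = 0.00236), a ratio of 1.87, and the lowest GPT1 library was well above the highest control. COX7C (chr5:86617904-86620962) measured 136, 143 and 144 CPM against 233, 211 and 219 CPM. It had the smallest adjusted p of the complex, 0.000503, for a rise of 0.65 ± 0.08.

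COX7A2, the general form of a subunit at the dimer edge, rose by 0.58 ± 0.10 (adjusted p = 0.00307), from 102 ± 10.3 CPM (SD, n = 3) to 152 ± 9.66 CPM (SD, n = 3). COX6B1, which sits on the cytosolic side of the complex and bridges its dimer, measured 84.4, 89.4 and 81.1 CPM against 134, 116 and 124 CPM. It rose by 0.55 ± 0.09 (adjusted p = 0.00248). These 4 genes kept the call whichever library was left out.

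The remaining 5 calls of complex IV depended on single libraries. COX5B, the zinc-binding matrix subunit, measured 140, 156 and 117 CPM against 226, 175 and 203 CPM, and rose by 0.55 ± 0.12 (adjusted p = 0.011), but gave 0.0524 without GPT1 replicate 1. COX6A1 rose by 0.55 ± 0.14 (adjusted p = 0.0208) and COX7B by 0.40 ± 0.09 (adjusted p = 0.0127). Both lost the call without GPT1 replicate 1, GPT1 replicate 3 or control replicate 1, with adjusted p up to 0.0897 and 0.0631. COX6C rose by 0.38 ± 0.09 (adjusted p = 0.0161) and lost the call without control replicate 1 or GPT1 replicate 3 (up to 0.0908). COX5A, the other matrix subunit, rose by 0.27 ± 0.09 at an adjusted p of 0.0469. That call was kept only without control replicate 2 or GPT1 replicate 2, and the adjusted p was up to 0.184 when any of the other 4 libraries was left out.

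2 tested genes of complex IV did not pass. COX4I1, the largest nuclear subunit and a regulatory site of the enzyme, measured 432, 446 and 385 CPM against 518, 446 and 480 CPM, so that the highest control and the lowest GPT1 library were both near 446 CPM. Its difference was 0.19 ± 0.09 (adjusted p = 0.128). COX7A2L, which joins complexes III and IV into supercomplexes, differed by 0.10 ± 0.08 (adjusted p = 0.411).

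The tissue forms of complex IV were silent or nearly so. COX4I2, COX6A2, COX7A1 and COX7B2 had 0 counts in all 6 libraries. COX6B2 had 16, 6 and 9 counts in the control libraries and 4, 7 and 6 in the GPT1 libraries. COX8C had 3, 7 and 3 counts against 7, 7 and 5. None of the 6 entered the test, and in both groups the general forms COX4I1, COX6A1, COX6B1, COX7A2, COX7B and COX8A carried nearly all counts of their pairs.

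In ATP synthase, 9 of 18 tested genes rose and 0 fell, with a median difference of 0.33, and the summed level was 3707 ± 199 CPM (SD, n = 3) against 4344 ± 207 CPM (SD, n = 3). Of the small membrane subunits that surround the proton channel and link the enzyme into dimers, 4 of 5 rose. ATP5MK (chr10:103389041-103396492), known as DAPIT, measured 48.6, 59.2 and 50 CPM in the control libraries and 104, 89.1 and 104 CPM in the GPT1 libraries. It rose by 0.91 ± 0.11 (adjusted p = 0.000423), a ratio of 1.88 and the largest of all 40 genes together with COX8A. ATP5MJ (chr14:103912288-103928269) measured 76.2, 79.7 and 75.9 CPM against 128, 113 and 125 CPM, a rise of 0.66 ± 0.09 (adjusted p = 0.000792).

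ATP5MF, subunit f, rose by 0.58 ± 0.11 (adjusted p = 0.00548) and ATP5ME, subunit e, by 0.53 ± 0.09 (adjusted p = 0.00334). The fifth, ATP5MG or subunit g, did not pass. It measured 16.0, 15.3 and 17.8 CPM in the control libraries and 16.5, 16.0 and 15.6 CPM in the GPT1 libraries, a difference of -0.02 ± 0.12 (adjusted p = 0.9). The summed level of the 5 was 210.1 ± 6.51 CPM (SD, n = 3) against 330.3 ± 20.4 CPM (SD, n = 3). Differences between the positions within the enzyme were not tested.

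In the catalytic F1 head, 2 of 5 genes rose, and both encode small parts of the central stalk. ATP5F1E (epsilon) rose by 0.39 ± 0.08 (adjusted p = 0.0105) and ATP5F1D (delta) by 0.41 ± 0.11 (adjusted p = 0.0213). The ATP5F1D call was lost without GPT1 replicate 1, GPT1 replicate 3 or control replicate 1 (adjusted p up to 0.0964). The alpha and beta subunits that form the catalytic ring did not pass. ATP5F1B (beta), the most abundant of the genes described here, measured 1400, 1460 and 1230 CPM against 1660, 1470 and 1630 CPM (0.22 ± 0.09, adjusted p = 0.106). ATP5F1A (alpha) measured 459, 445 and 439 CPM against 482, 464 and 493 CPM (0.10 ± 0.07, adjusted p = 0.328). In both genes the groups did not overlap, by a narrow margin. ATP5F1C, the gamma shaft, measured 182, 221 and 199 CPM against 207, 196 and 197 CPM, with overlapping groups and a ratio of 0.996.

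The peripheral stalk, which holds the head still, had 1 call of 4, where 10.5% of all genes were called higher. ATP5PF, coupling factor 6, rose by 0.30 ± 0.08 (adjusted p = 0.0264) and lost the call without GPT1 replicate 1, GPT1 replicate 3 or control replicate 1 (adjusted p up to 0.109). ATP5PO, the OSCP subunit at the top of the stalk, measured 9.29, 9.11 and 9.85 CPM against 12.9, 11.9 and 11.2 CPM. Its difference of 0.35 ± 0.12 just missed the threshold (adjusted p = 0.0542) although the groups were separate. ATP5PD differed by 0.11 ± 0.08 (adjusted p = 0.341) and ATP5PB by -0.04 ± 0.09 (adjusted p = 0.744). ATP5IF1, the inhibitor that blocks the enzyme from running backward, measured 283, 293 and 262 CPM against 344, 306 and 328 CPM. That difference of 0.22 ± 0.08 did not pass (adjusted p = 0.0687), except without GPT1 replicate 2.

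The ring of c subunits is made from ATP5MC1, ATP5MC2 and ATP5MC3, which encode the same mature protein behind different import signals. The last 75 codons of the 3 genes are printed here, from GENCODE 29 transcripts, because their letters show that reads can tell the genes apart although the peptide cannot. Capitals mark every base that is not shared by all 3 genes.
ATP5MC1: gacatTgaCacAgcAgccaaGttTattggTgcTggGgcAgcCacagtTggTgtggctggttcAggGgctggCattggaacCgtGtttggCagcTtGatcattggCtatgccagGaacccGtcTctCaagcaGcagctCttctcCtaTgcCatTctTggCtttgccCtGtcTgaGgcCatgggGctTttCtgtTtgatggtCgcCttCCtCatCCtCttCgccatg
ATP5MC2: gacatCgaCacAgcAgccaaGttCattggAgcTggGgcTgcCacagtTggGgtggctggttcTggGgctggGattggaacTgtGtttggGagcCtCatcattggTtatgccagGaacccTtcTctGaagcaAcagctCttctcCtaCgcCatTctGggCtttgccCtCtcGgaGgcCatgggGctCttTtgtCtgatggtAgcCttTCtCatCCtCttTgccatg
ATP5MC3: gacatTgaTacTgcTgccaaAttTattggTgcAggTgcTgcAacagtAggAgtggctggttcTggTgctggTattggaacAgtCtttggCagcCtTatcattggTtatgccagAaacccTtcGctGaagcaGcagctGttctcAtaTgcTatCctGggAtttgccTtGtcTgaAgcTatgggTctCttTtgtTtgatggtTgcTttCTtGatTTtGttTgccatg
The 3 stretches translate into 1 peptide, with 0 codons that change the amino acid. Over the 225 bases, 52 positions differed among the genes, 25 between ATP5MC1 and ATP5MC2 and 42 between ATP5MC3 and either of the others. The longest run shared by all 3 was 11 bases, and by any pair 17 bases.

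ATP5MC3 measured 252, 245 and 224 CPM in the control libraries and 328, 293 and 338 CPM in the GPT1 libraries. It rose by 0.41 ± 0.09 (adjusted p = 0.00908), a call lost without GPT1 replicate 3 (0.0589). ATP5MC1 rose by 0.39 ± 0.09 (adjusted p = 0.0167), a call lost without GPT1 replicate 1 or GPT1 replicate 3 (up to 0.081). ATP5MC2 measured 260, 258 and 226 CPM against 278, 259 and 280 CPM, with overlapping groups and a difference of 0.14 ± 0.08 (adjusted p = 0.247). Per kilobase of transcript, the summed level of the 3 genes was 670.2 ± 45.8 CPM per kb (SD, n = 3) in the control libraries and 824.3 ± 49.6 CPM per kb (SD, n = 3) in the GPT1 libraries. The share of ATP5MC2 in that sum was 42.2%, 42.5% and 41.6% in the control libraries and 37.3%, 38.4% and 37.3% in the GPT1 libraries. The share of ATP5MC3 was 42.6%, 42.1% and 43.1% against 45.8%, 45.3% and 46.9%. The shares of both genes were separate between the groups, and the SDs within groups lay between 0.425 and 0.823 percentage points. These shares were described and not tested.

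**Figure D2:**
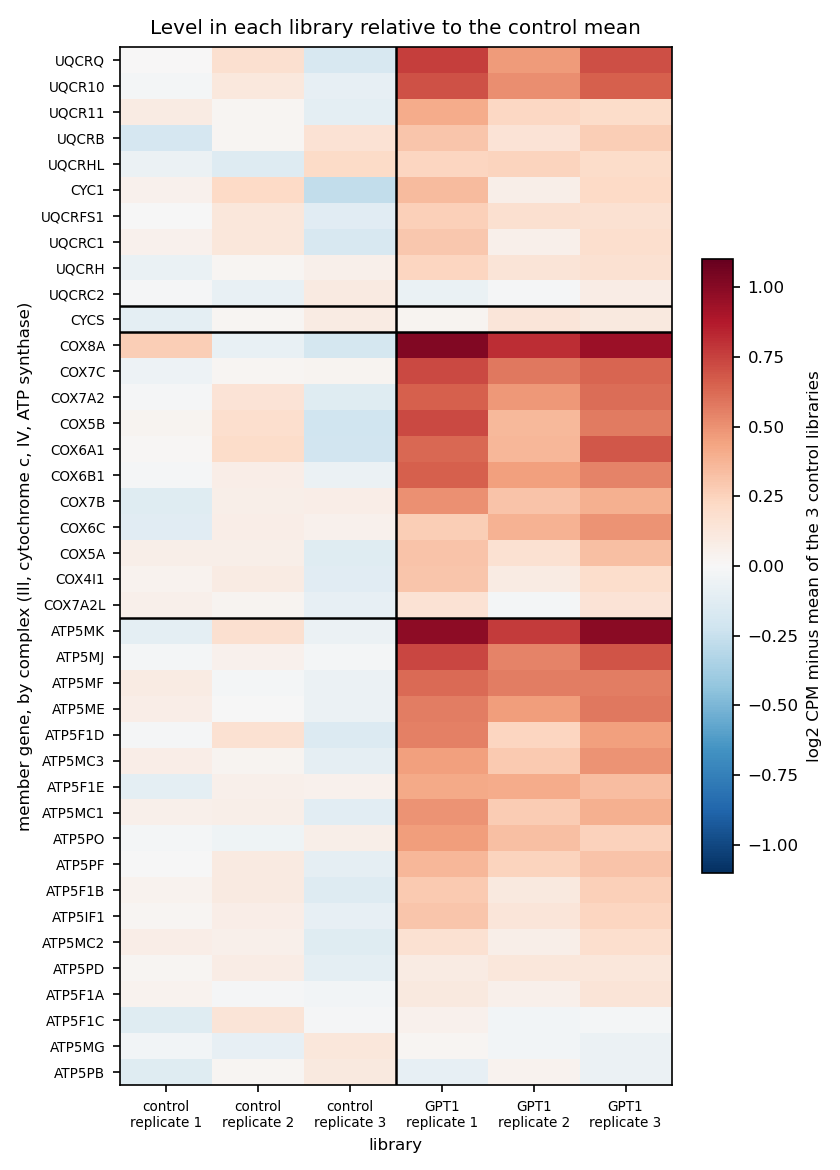
Log2 CPM of each tested gene in each of the 6 libraries, minus the mean of the 3 control libraries, ordered within each complex by the difference between the groups. The GPT1 libraries are warm for most rows, replicate 2 less than replicates 1 and 3, and the rows from ATP5F1C to ATP5PB stay pale.

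Within each group many of the genes shared the direction of their library's shift, but not all did. In control replicate 1, 19 of the 40 lay above the control mean. The median gene lay 0.00, 0.06 and -0.09 (log2) from the control mean in control replicates 1, 2 and 3, and 0.35, 0.24 and 0.29 above it in GPT1 replicates 1, 2 and 3. GPT1 replicate 2 was the lowest of its group for 29 of the 40 genes and GPT1 replicate 1 the highest for 27. Control replicate 3, the shallowest library, was the lowest of its group for 26. Base composition went with the deviations of single genes from their group mean, across the 40 most clearly in 4 of the 6 libraries. Across the 40 genes, the Spearman correlation between the GC content of a gene's transcript and the library's deviation from its group mean was 0.73 in control replicate 1, -0.72 in control replicate 3, 0.48 in GPT1 replicate 1 and -0.51 in GPT1 replicate 2. Over 17436 tested genes it was 0.47, -0.65, 0.58 and -0.58. In control replicate 2 and GPT1 replicate 3 it was weaker across the 40, at 0.25 and 0.24, and over all genes it was 0.50 and 0.05. The genes share the library, so no p is given.

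The calls also followed size. The Spearman correlation across the 40 genes between the group difference and transcript length was -0.59, and with coding length it was -0.62. Over all tested genes the same correlations were -0.32 (17436 genes) and -0.29 (13930 genes), so shorter genes had higher differences throughout the table. Among genes with a coding length under 450 nt, 18 of 27 were called higher, against 26.6% of all 905 tested genes of that size. Among those of 450 nt or more, 2 of 13 were called higher (ATP5F1D and COX5A), against 9.81% of 13025. By transcript length, 19 of 27 genes under 1000 nt were called, against 15.6% of all such genes, and 1 of 13 longer ones, ATP5F1E, against 9.82%. The transcript model used for ATP5F1E is 1878 nt long against a coding length of 153 nt.

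With a correction that removes each library's trend with transcript length and GC content, 19 of the 40 genes were higher and 0 lower, where 19.7% of all genes were called higher and 15.2% lower. 17 genes were called with and without it. COX5A, COX6C and ATP5PF lost the call (adjusted p = 0.587, 0.0777 and 0.112), while UQCRB and UQCRFS1 gained it (0.66, adjusted p = 0.000893, and 0.31, adjusted p = 0.0186). Complex IV then had 7 calls, ATP synthase 8 and complex III 4. The transcript model used for UQCRB is 5575 nt long against a coding length of 333 nt, and that for UQCRFS1 3475 nt against 822 nt. The difference of ATP5F1E, whose model is also long, was 0.39 without the correction and 0.60 with it. The median difference of the 40 fell to 0.19, where that of all genes was 0.03. The correlation with transcript length was then -0.13, but with coding length it was still -0.53. Under this correction 17 of the 27 genes with a coding length under 450 nt were called, against 33.1% of all genes of that size. The part of length and base composition in these differences was not tested further.

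**Figure D3:**
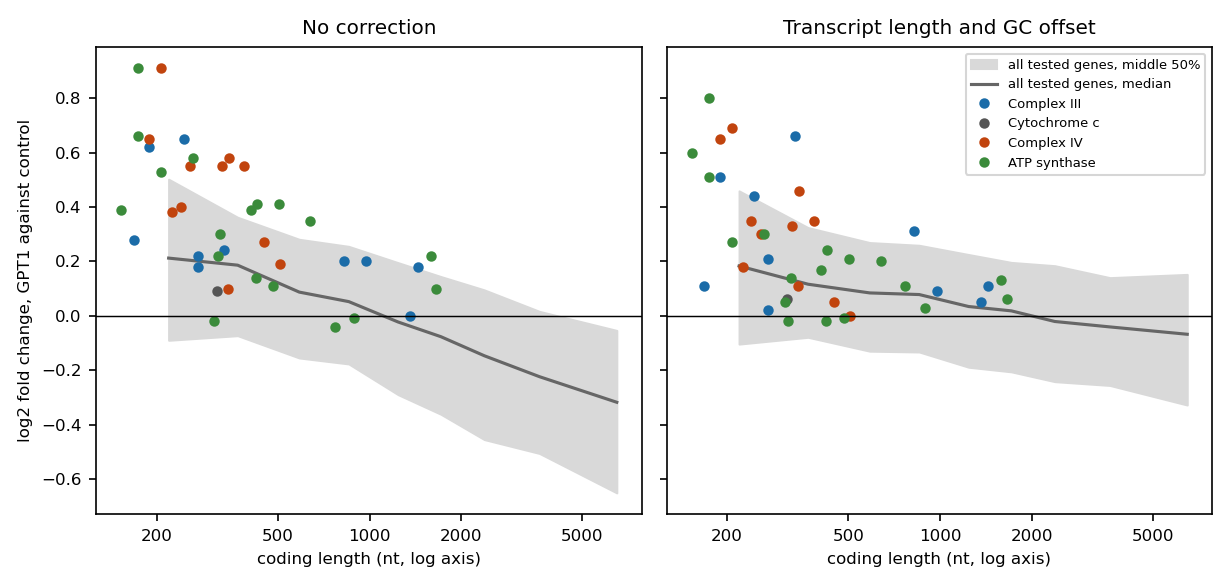
Log2 fold change against coding length (log axis) for the tested genes, without correction on the left and with the transcript length and GC offset on the right. The grey line and band are the median and middle 50% of all tested genes by coding length; the median falls from 0.212 for genes up to 250 nt to -0.318 above 5000 nt without correction, and from 0.183 to -0.068 with it, and the shortest members lie mostly above the band in both panels.

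Promoter letters were compared because 20 genes moved in the same direction. RefSeq promoter windows (GRCh38.p14, 250 bases before to 50 after the start site) were at hand for 36 of the 48 genes and 32 of the tested 40. The ETS core CCGGAAG, read on both strands, was present in 13 of the 32 (40.6%) and in 10.7% of 27305 windows of the same length. It was present in 8 of 16 genes called higher and in 5 of 16 not called. The 27305 windows were not limited to genes expressed in these cells, whereas the 32 belong to tested genes. No split between called and not called genes was tested for any motif. For each of the 8 called genes the match nearest the start site is printed, as 30 bases read on the strand of the match, with the match in capitals. ATP5MK had 3 matches in its window and COX5B had 2. The sites are shown so that their flanks can be compared. Along the direction of the gene, the printed matches began between 54 bases before the RefSeq start site (UQCRQ) and base 4 of the RefSeq transcript (ATP5ME). RefSeq start sites are not always the GENCODE gene starts, and the UQCRQ site lies inside the GENCODE bounds given above. For a match on the strand opposite to the gene, as in ATP5ME, this is the last printed base of the match.
UQCRQ, chr5:132866577-132866606, plus strand: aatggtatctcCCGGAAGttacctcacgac
COX8A, chr11:63974591-63974620, minus strand: tggctgcgctggCCGGAAGttctggagctg
COX5B, chr2:97646046-97646075, plus strand: gcagcttgttcCCGGAAGttttgctgctag
COX6A1, chr12:120438086-120438115, minus strand: actgccgcagcgCCGGAAGcggaagtggaa
COX6B1, chr19:35648300-35648329, minus strand: aactactaccagCCGGAAGctgagagaggt
ATP5MK, chr10:103396460-103396489, plus strand: ctctcggcccggCCGGAAGaagccacctcc
ATP5ME, chr4:674255-674284, plus strand: ctgacctccgcaCCGGAAGcacaacctgca
ATP5PF, chr21:25735066-25735095, minus strand: tgccaggggacCCGGAAGcacttaccctcc
The NRF1 palindrome (GCGC, any base, then TGCGC) was present in 8 of the 32 windows (25%) against 6.3% of all, in 3 of the 16 called genes and 5 of the 16 not called. The GC box GGGCGG was in 20 of the 32 (62.5%) against 44.6%, in 8 called genes and 12 not called. The YY1 core AAGATGGCG was in 2 of the 32 (6.2%) against 1.8%. The GC box and ETS matches can overlap or abut. COX5B shows both in the stretch before its start site that no annotated exon covers, printed with GC boxes and the ETS core in capitals; it ends 22 bases before the start site used by RefSeq.
COX5B, chr2:97645812-97646039, plus strand: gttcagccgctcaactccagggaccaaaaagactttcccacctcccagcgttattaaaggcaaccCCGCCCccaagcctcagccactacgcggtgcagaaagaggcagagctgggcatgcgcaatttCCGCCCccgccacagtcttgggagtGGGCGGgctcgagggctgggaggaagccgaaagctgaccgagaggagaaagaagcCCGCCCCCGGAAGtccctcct
In that stretch of 228 bases there were 4 GC boxes and 1 ETS core, and the second ETS core of the gene is the site above. A match is a description of letters and not a measured binding site.

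Per kilobase of transcript, the most abundant gene in the control libraries was ATP5F1B at 742 ± 64.0 CPM per kb (SD, n = 3). COX4I1 (588 ± 44.7) and ATP5IF1 (566 ± 32.7) followed with overlapping ranges, then UQCRH at 387 ± 17.1. From ATP5MC3 (285 ± 17.1) down to ATP5MJ (120 ± 3.25), each of the 21 genes overlapped its neighbour in the order, so that stretch is not resolved by these replicates. The lowest were UQCRHL (7.25 ± 0.96), ATP5PO (10.1 ± 0.413), ATP5MG (10.4 ± 0.815), COX6A1 (19.9 ± 2.82), COX8A (20.2 ± 3.50) and UQCR11 (22.1 ± 1.51). ATP5PO and ATP5PD build the same stalk, yet stood at 10.1 and 158 ± 10.3 CPM per kb. The places of UQCRB, UQCRFS1 and ATP5F1E in the order depend on the long transcript models named above.

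The low genes share sequence with other annotated genes, and no source used here tells how the authors' counting treated such reads. Cut into words of 50 bases, 69.05% of the ATP5PO transcript also occurred in ENSG00000249209, an overlapping gene that itself had 1, 1 and 4 counts in the control libraries and 2, 3 and 5 in the GPT1 libraries. For COX6A1 the share was 44.06%, for ATP5MF 39.06%, for UQCRH 29.53%, for COX8A 27.79%, for UQCR11 26.42% and for ATP5MG 16.75%. The overlapping loci of COX8A (ENSG00000256100), COX6A1 (ENSG00000111780) and UQCR11 (ENSG00000267059) had 0 counts in every library. ATP5F1B, COX4I1 and ATP5IF1, the most abundant per length, shared 0% of their words. The levels of COX6A1, COX8A, UQCR11, ATP5MF, ATP5MG, ATP5PO, UQCRH and UQCRHL are therefore uncertain, and the part of shared reads in them was not tested.

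**Figure D4:**
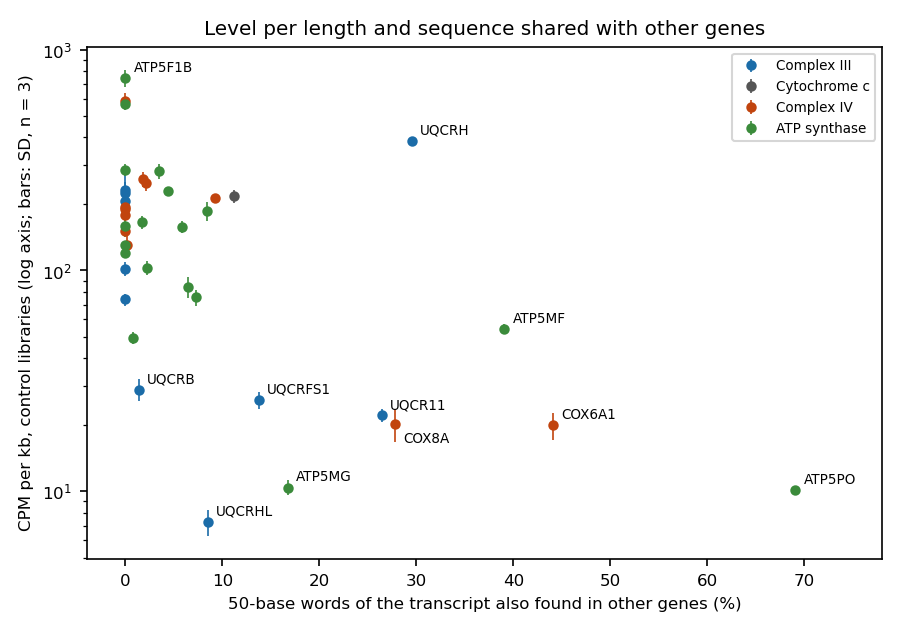
Mean level per kilobase of transcript in the 3 control libraries (log axis, bars SD) against the percentage of each transcript's 50-base words that also occur in other genes. ATP5PO, COX6A1, COX8A, UQCR11 and ATP5MG combine a high shared percentage with a level at or under 22.1 CPM per kb, while UQCRH shares 29.53% of its words and lies at 387.

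Pseudogene copies took few reads where they were looked for, which was by the UQCR, COX and ATP5 symbol prefixes. 117 pseudogenes match these prefixes, 25 of them had any count, and together they held 0.209% of the counts of the 48 genes. The best covered was COX6A1P2, at 9.09 ± 1.40 CPM (SD, n = 3) in the control libraries and 9.68 ± 0.603 CPM (SD, n = 3) in the GPT1 libraries, close to the level of COX6A1 itself (11.4 ± 1.61 CPM and 16.7 ± 1.92 CPM). COX6A1P2 differed by 0.08 ± 0.14 (adjusted p = 0.686) where COX6A1 rose by 0.55 ± 0.14. Pseudogenes of CYCS lie outside these prefixes, and their counts were not examined. The CYCS transcript shared 11.24% of its words with other genes, CYCS pseudogenes among them. 2 further members had almost no counts: ATP5MGL had 3 in control replicate 1 and 0 elsewhere, and the readthrough ATP5MF-PTCD1 had 1, 2 and 6 against 3, 4 and 5. On the opposite strand, 61.6% of the exon bases of ATP5ME overlap exons of MYL5, 23.18% of ATP5F1E those of TUBB1, 23.05% of ATP5PF those of GABPA and JAM2, and 20.79% of UQCRQ those of GDF9. Whether reads were counted by strand is not known from the sources used here, so reads of these neighbours cannot be told apart.

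The mitochondrial genome encodes the partners of these subunits, and 0 of these were called higher. Of 6 partner genes, 0 were called in either direction by edgeR, 0 passed an unadjusted p under 0.05, and DESeq2 and limma voom called 0. Of all tested genes, edgeR called 10.5% higher and 14.6% lower. Their median difference was -0.25, and the spread within groups was wide. MT-CO1, the catalytic subunit of complex IV, was at 8740 ± 1880 CPM (SD, n = 3) in the control libraries and 6030 ± 2390 CPM (SD, n = 3) in the GPT1 libraries (-0.54 ± 0.26, adjusted p = 0.142). MT-CYB of complex III differed by -0.22 ± 0.24 (adjusted p = 0.526) and MT-ATP6 of ATP synthase by -0.24 ± 0.21 (adjusted p = 0.429). GPT1 replicate 3 had the lowest summed level of the 6, 6970 CPM against 11750 and 15070 CPM in the other GPT1 libraries. The number lower depended on the setting. It was 3 of 6 without an expression filter, 2 without GPT1 replicate 2 and 2 with the correction taken from the longest transcript. With the length and GC correction it was 1, MT-CO3 (-0.49, adjusted p = 0.0279), where 15.2% of all genes were called lower. For the other settings that share is not given here, so their counts are not read as a fall of these genes.

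Assembly factors are read against the 10.5% of all genes called higher and 14.6% called lower. For complex III, 3 of 9 rose and 0 fell, and those 3 were UQCC5 (0.83 ± 0.12, adjusted p = 0.00162), UQCC2 (0.53 ± 0.13, adjusted p = 0.0157) and UQCC1 (0.27 ± 0.09, adjusted p = 0.0437), factors that act on newly made cytochrome b. For complex IV, 11 of 26 tested factors and associated proteins rose and 1 fell. The smallest adjusted p were those of the copper-handling factor COA6 (0.67 ± 0.10, adjusted p = 0.0015), of NDUFA4 (0.56 ± 0.10, adjusted p = 0.00403), a protein bound to complex IV, and of COA3 (0.60 ± 0.11, adjusted p = 0.00435), which acts on newly made MT-CO1. COA1 fell by 0.32 ± 0.09 on the log2 scale (adjusted p = 0.0224). For ATP synthase, 1 of 6 rose, DMAC2L (0.47 ± 0.13, adjusted p = 0.027), once called ATP5S, a share near that of all genes.

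The earlier steps of the chain gave similar values. With all 6 libraries, 10.5% of all genes were called higher and 14.6% lower, and the counts below stand beside these shares. Of 36 tested nuclear complex I subunits, 19 rose and 0 fell, with a median of 0.29, led by NDUFA1 (0.84 ± 0.09, adjusted p = 0.000321), NDUFA2 (0.76 ± 0.11, adjusted p = 0.00113) and NDUFB2 (0.73 ± 0.10, adjusted p = 0.00124). Without control replicate 1 that count fell to 11, where 5.48% of all genes were called higher. It was 6 without GPT1 replicate 1 (3.58% of all genes) and 7 without GPT1 replicate 3 (3.39%). Of 8 genes of complex II and its assembly, 3 rose and 0 fell: SDHAF2 (0.89 ± 0.15, adjusted p = 0.00403), SDHC (0.36 ± 0.09, adjusted p = 0.0185) and SDHD (0.40 ± 0.12, adjusted p = 0.0298). The vacuolar proton pump, a rotary relative of ATP synthase in acidic organelles, had 6 of 12 higher and 0 lower, with a median of 0.27. Its smallest adjusted p were those of ATP6V0B (0.82 ± 0.10, adjusted p = 0.000706), ATP6V0E1 (0.42 ± 0.08, adjusted p = 0.00568) and ATP6V1H (0.46 ± 0.09, adjusted p = 0.00731). No difference between these lists and the 40 genes was tested.

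Among 13 regulators of nuclear respiratory genes, 1 rose and 2 fell, close to the 10.5% and 14.6% of all genes. ESRRA, a nuclear receptor of mitochondrial genes, rose by 0.33 ± 0.11 (adjusted p = 0.0443). GABPA and GABPB1, the subunits of an ETS factor, fell by 0.70 ± 0.21 (adjusted p = 0.0334) and 0.48 ± 0.13 (adjusted p = 0.0245) on the log2 scale. With the length and GC correction neither passed (-0.20, adjusted p = 0.11, and -0.11, adjusted p = 0.288), and 4 of the 13 were higher and 0 lower, where all genes gave 19.7% and 15.2%. The median of the 13 was -0.05 without the correction and 0.13 with it.

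Markers of cell identity moved with the groups, where 10.5% of all genes were called higher and 14.6% lower. Of 8 measured intestinal epithelial markers, 7 fell and 0 rose. Their median difference was -1.69 on the log2 scale, with single genes from -2.26 to 0.12. The summed level was 882.2 to 1036 CPM in the control libraries and 561.2 to 631.9 CPM in the GPT1 libraries. That sum is mostly made up by its most abundant genes, which fell less than the median. Of 7 measured markers of neural and kidney lines, 3 fell and 0 rose, at 429.1 to 513.5 CPM against 205.5 to 210.7 CPM. Of 6 fibroblast markers, 3 rose and 0 fell, at 52.68 to 55.63 CPM against 66.52 to 68.31 CPM. Of 3 leukocyte markers 1 fell, CD3E was at 0 and PTPRC near 0, and the sum was 4.579 CPM or less in every library. Of 2 measured muscle markers 0 changed, and no endothelial marker was expressed highly enough to test. The part of these identity changes in the respiratory genes was not tested.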

How the data were processed

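mRNA libraries were made from Trizol-extracted total RNA with Illumina protocols, per the labels' protocols. The deposited values are raw counts of reads per gene, whole numbers without normalization. Reads were aligned with HISAT2 2.0 to GRCh38, per the submitters' processing notes. No source used here names the counter, the annotation release or the strand setting.

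Symbols came from a gene name table (60463 of 60664 IDs matched), and gene types, coordinates and transcripts from GENCODE 29 (58396 IDs). Length and GC content are those of the median-length APPRIS principal transcript, otherwise of the longest one. Members and lists were chosen with earlier results of these data known. Every member may be named; each other list gives at most its 3 genes per direction with the smallest adjusted p, apart from the mitochondrial partners, COX6A1P2, KRT20, CDX1, CD3E, PTPRC and the genes under the closing observations, which were named after their values were seen.

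In R 4.3.3, edgeR 4.0.16 was fitted to all 6 libraries: filterByExpr (17638 genes), TMM scaling, quasi-likelihood F test (two-sided), Benjamini-Hochberg adjustment over all tested genes, threshold 0.05. The common biological coefficient of variation was 0.119, and standard errors were computed from each log2 fold change and its F value. Within groups, the chi-square per degree of freedom between replicates was 10.8 to 33.7, more than counting alone gives. All 6 were fitted as separate samples, but this value cannot tell separate cultures from separate library preparations. The scripts were first tested on simulated counts with known changes. There edgeR called 24% of genes changed by 1.25-fold, 50% of those changed by 1.5-fold and 100% of those changed by 2-fold. Only 50 of 17403 genes were changed at each size, all well covered. That is far fewer than were called here, so these shares need not hold for the real data. Of the unchanged genes 0.0407% were called. With a length trend added to the GPT1 group it was 2.62%, and 0.0349% when the length and GC correction was applied to it.

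The length and GC correction fitted a smooth function (mgcv 1.9.3) per library and entered it as an offset; 98.9% of tested genes had both values. Other alternatives were scaling factors, expression filters, DESeq2 1.42.0, limma 3.58.1 (voom), stricter thresholds, GPT or the mitochondrial genome left out, a replicate block and each library left out. No protein sequences were at hand, so none are printed.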

Additional observations from a re-analysis of the deposited data

How the results depend on the processing

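Of the 20 genes called higher, 10 kept the call in all 22 alternatives: UQCRQ, UQCR10, COX6B1, COX7A2, COX7C, COX8A, ATP5ME, ATP5MF, ATP5MJ and ATP5MK. The number higher was 10 in a test against a 1.2-fold change and 11 at an adjusted p of 0.01; leaving out 1 library at a time gave 12 to 22. Elsewhere it was 17 to 25: 21 with RLE, with upper-quartile scaling, with at least 1 CPM in 3 libraries and without the mitochondrial genome, 20 with library totals and without GPT, 19 without an expression filter, 22 with an offset from coding length and 25 with one from the longest transcript, both added after seeing the data. The number lower was 0 throughout. The length and GC offset alone raised the share of all genes called higher from 10.5% to 19.7%. For the scaling, filter, block and other offset settings that share is not given here. Their counts of genes higher are therefore not read against a background. Replicate numbers did not pair the libraries (correlations of same-numbered libraries 0.141, -0.282 and -0.084). With the replicate block 18 were higher, and with the block and the length and GC offset 17. Of the 6 mitochondrial partner genes, 1 was lower with the replicate block and 3 with the block and the offset. The share of all genes called lower in these fits is not given here.

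Changes of sign were limited to genes that were not called. With the length and GC offset, the log2 difference was 0.031 for ATP5F1C, -0.019 for ATP5IF1, -0.018 for ATP5MC2, 0.046 for ATP5MG, 0.11 for ATP5PB, -0.009 for ATP5PD and 0.049 for UQCRC2. With the replicate block in the same fit these were 0.036, -0.019, -0.019, 0.045, 0.112, -0.005 and 0.047. With the longest transcript, ATP5F1C was at 0.007, ATP5MG at 0.010, ATP5PB at 0.073 and UQCRC2 at 0.014. With coding length, ATP5F1C was at 0.123, ATP5IF1 at -0.005, ATP5MC2 at -0.035, ATP5PB at 0.040, CYCS at -0.001, UQCR11 at -0.053, UQCRC2 at 0.086 and UQCRH at -0.018. ATP5F1C was at 0.007 with DESeq2 and RLE, 0.000 with at least 1 CPM, 0.034 with upper-quartile scaling and 0.008 without the mitochondrial genome. UQCRC2 was at 0.012 with DESeq2, RLE and without the mitochondrial genome, 0.004 with at least 1 CPM, 0.001 with voom, 0.000 without a filter and 0.038 with upper-quartile scaling, where ATP5MG was at 0.016. Leaving out 1 library at a time gave -0.062 to 0.07 for ATP5F1C, -0.071 to 0.054 for ATP5MG, -0.096 to 0.028 for ATP5PB and -0.044 to 0.063 for UQCRC2. The cause was not tested.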

Other observations

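TTC19, UQCC3, UQCC4, UQCC6, BCS1L and LYRM7 are the complex III assembly factors that did not pass. They were chosen for mention after their values were seen, because LYRM7, which chaperones the Rieske protein, was the lowest of the list at -0.36 ± 0.13 (edgeR, adjusted p = 0.0636), while BCS1L, which inserts that protein, was at 0.23 ± 0.10 (adjusted p = 0.113). With the length and GC offset LYRM7 was at 0.10 (adjusted p = 0.298), so its sign depended on the correction.

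Within the complex IV list, the copper proteins SCO1 and SCO2 differed by 0.28 ± 0.09 (adjusted p = 0.043) and 0.58 ± 0.17 (adjusted p = 0.0294), and COX17, the copper chaperone that supplies them, by 0.41 ± 0.10 (adjusted p = 0.0145). COX11, which also handles copper, was at 0.03 ± 0.09 (adjusted p = 0.827). COX10 and COX15 make the heme A of the enzyme; COX15 was at 0.50 ± 0.10 (adjusted p = 0.00843) and COX10 at -0.02 ± 0.11 (adjusted p = 0.934). The difference between these pairs was not tested, and these genes were also chosen after their values were seen.

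Some subunit genes of the comparison lists had very few counts. They are named after their values were seen. SDHA of complex II had 3.15 ± 0.557 CPM (SD, n = 3) in the control libraries where SDHB had 108 ± 3.86 CPM (SD, n = 3), and over all 6 libraries NDUFV2, NDUFA7, NDUFA13 and NDUFB8 of complex I had 26, 85, 263 and 387 counts and ATP6V0C of the vacuolar pump had 18. The handling of reads that match several loci was not given, and its part in these values was not tested.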
